A study of Mus musculus with 27 samples.

Results

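The natriuretic peptide system was followed from birth to old age in the mouse heart through 7 genes, chosen by symbol: the peptide genes Nppa, Nppb and Nppc, the receptor genes Npr1, Npr2 and Npr3, and Corin, which encodes the protease that activates pro-ANP. All 7 were present in both count tables, among 22855 genes. RNA-Seq had been run on PDGFRα-expressing cardiac fibroblasts, sorted by flow cytometry, and on whole heart of C57Bl/6 mice. No treatment or engineered allele was named for any sample, and the comparison of interest was age. The design line of the series speaks of myocardial infarction, which neither the sample labels nor the methods mention for these animals, and the levels below are described by age alone. The youngest group was newborn (postnatal day 1) and the others were 4 weeks, then 14 weeks, then 1 year and last 1.5 years old. Each age had 3 whole hearts. Cardiac fibroblasts had 3 samples in each of the 2 youngest groups and 2 in each of the 3 oldest. The sorted cells came from ventricles, and whether whole hearts kept their atria is not stated. By the methods, hearts came from separate animals and fibroblast sets were isolated from different hearts, with 3 sets at each age. At the 3 oldest ages 1 set is thus not analysed here. By the paper, the hearts that gave the fibroblasts were sequenced too, so the 2 tissues may share animals. The main fits between tissues took all samples as independent.

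Atrial natriuretic peptide (ANP, from Nppa) and brain natriuretic peptide (BNP, from Nppb) are hormones released by heart muscle cells, ANP mainly from the atria of the adult heart, and both are raised when the muscle is stretched or overloaded. They act through Npr1, a receptor that makes cyclic GMP. C-type natriuretic peptide (from Nppc) acts in tissues near its source through Npr2, a second receptor of the same kind. Npr3 binds all of these peptides, removes them from the circulation and lacks the cyclase domain. The cyclic GMP signal is carried by the cyclic GMP kinases and ended by phosphodiesterases.

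In the annotation (GENCODE M21 on GRCm38), Nppb lies at chr4:147985788-147987205 and Nppa at chr4:148000722-148002079, both on the plus strand, with 13517 bases between the end of Nppb and the start of Nppa. Corin lies at chr5:72300025-72504473, Npr1 at chr3:90450591-90465866, Npr3 at chr15:11839896-11907287 and Nppc at chr1:86666291-86670571, all on the minus strand, and Npr2 at chr4:43631935-43651244 on the plus strand. All 7 are protein-coding. Because the neighbours Nppa and Nppb followed different courses in the whole heart, the 130 bases before each start site are shown from RefSeq (GRCm38.p6, plus strand, 5′ to 3′). They span chr4:148000592-148000721 for Nppa and chr4:147985770-147985899 for Nppb, where GENCODE places the first base of the gene 112 bases before the RefSeq start. Capitals mark GATAA, the core of the site bound by GATA factors, on either strand, and TATAAA, the TATA box.
Nppa: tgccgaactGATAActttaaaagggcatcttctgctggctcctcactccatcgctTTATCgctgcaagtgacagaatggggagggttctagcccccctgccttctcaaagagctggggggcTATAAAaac
Nppb: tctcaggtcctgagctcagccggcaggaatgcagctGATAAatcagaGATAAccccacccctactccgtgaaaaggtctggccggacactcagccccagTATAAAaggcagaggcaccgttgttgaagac

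Both stretches held GATAA at 2 places, at -121 and -75 from the start site in Nppa, the latter on the minus strand, and at -94 and -83 in Nppb. The letters TATAAA began at -9 in Nppa and at -31 in Nppb. All positions count from the RefSeq starts, and whether the heart uses these starts was not tested. Another motif, CATTCC (the core of the M-CAT site bound by TEAD factors), was present in Nppb, at -105 on the minus strand, and was not found in the window of Nppa. In windows of 300 bases around 32851 mouse start sites, searched on both strands, GATAA was present in 25.409%, TATAAA in 13.616% and CATTCC in 14.663%. Of the other members, the window of Nppc held a TATA box, at -29, and those of Corin, Npr1, Npr2 and Npr3 held none of the 3 motifs. These matches describe letters only.

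Cardiac fibroblast libraries held 54615900 to 76758800 counts and whole-heart libraries 46091300 to 67984400. The sorted samples carried the marker of the sort, with Pdgfra between 784 and 1367 CPM (counts scaled to a library of 1000000, after TMM scaling within each tissue) against 28.6 to 62.0 CPM in whole hearts. Endothelial RNA was present in both: the summed level of 8 of 8 endothelial markers was 314 to 2005 CPM in cardiac fibroblasts and 582 to 1253 CPM in whole hearts. Sex was not given in the labels. Xist, expressed from the inactive X chromosome, was at most 0.570 CPM at 14 weeks and 1 year and at least 6.48 CPM at the other ages, and the Y-linked Ddx3y was at most 0.397 CPM at 1.5 years and at least 1.64 CPM at the other ages. All samples of postnatal day 1 and 4 weeks held RNA of both genes, with Xist at 137 to 589 CPM and Ddx3y at 24.8 to 50.8 CPM in cardiac fibroblasts. In whole hearts Xist was 124 to 334 CPM and Ddx3y 4.58 to 26.6 CPM at postnatal day 1. At 4 weeks they were 6.48 to 140 CPM and 1.64 to 33.9 CPM there. Sex and age therefore cannot be told apart in comparisons of 1.5 years with 14 weeks or 1 year. The make-up by sex also differed between the 2 youngest ages and each older one. Whether samples of the 2 youngest ages pooled animals of both sexes is not stated, so a sample there may not be a single animal.

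In whole hearts after TMM scaling, the mean of Nppa was highest at birth, that of Nppb at 1.5 years, and that of Corin from 4 weeks to 1 year. Of the 7 members, 5 (Nppa, Nppb, Corin, Npr2 and Npr3) differed among the 5 ages at an adjusted p under 0.05 in edgeR's quasi-likelihood test, where 34.3% of 17995 genes tested did. From postnatal day 1 to 4 weeks 4 members passed (Nppa, Corin, Npr2 and Npr3; 18.2% of all genes). None of the 7 passed between 4 and 14 weeks (1.61% of all genes) or between 14 weeks and 1 year (0.972%), where 1 and 4 members had an unadjusted p under 0.05 and DESeq2 called 0 and 2. From 1 year to 1.5 years 2 passed (2.66%), as did 2 from 14 weeks to 1.5 years (12.8%), in both cases Nppb and Corin. Between postnatal day 1 and 1.5 years 4 passed (31.8%).

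In cardiac fibroblasts, the receptors carried most of the RNA of the system, with Npr1 higher and Npr3 lower after birth. Among the 5 ages 4 members differed (Nppa, Nppb, Npr1 and Npr3), against 19.9% of 18759 genes. From postnatal day 1 to 4 weeks 3 passed (Nppa, Npr1 and Npr3; 15.5%), from 4 to 14 weeks 1 (Npr3; 3.87%), and between postnatal day 1 and 1.5 years 3 (Nppb, Npr1 and Npr3; 16.3%). None passed from 14 weeks to 1 year (1.78% of all genes), from 1 year to 1.5 years (0.240%) or from 14 weeks to 1.5 years (2.72%). In these 3 comparisons 1, 2 and 2 members had an unadjusted p under 0.05, and DESeq2 called 1 in each.

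**Figure D1:**
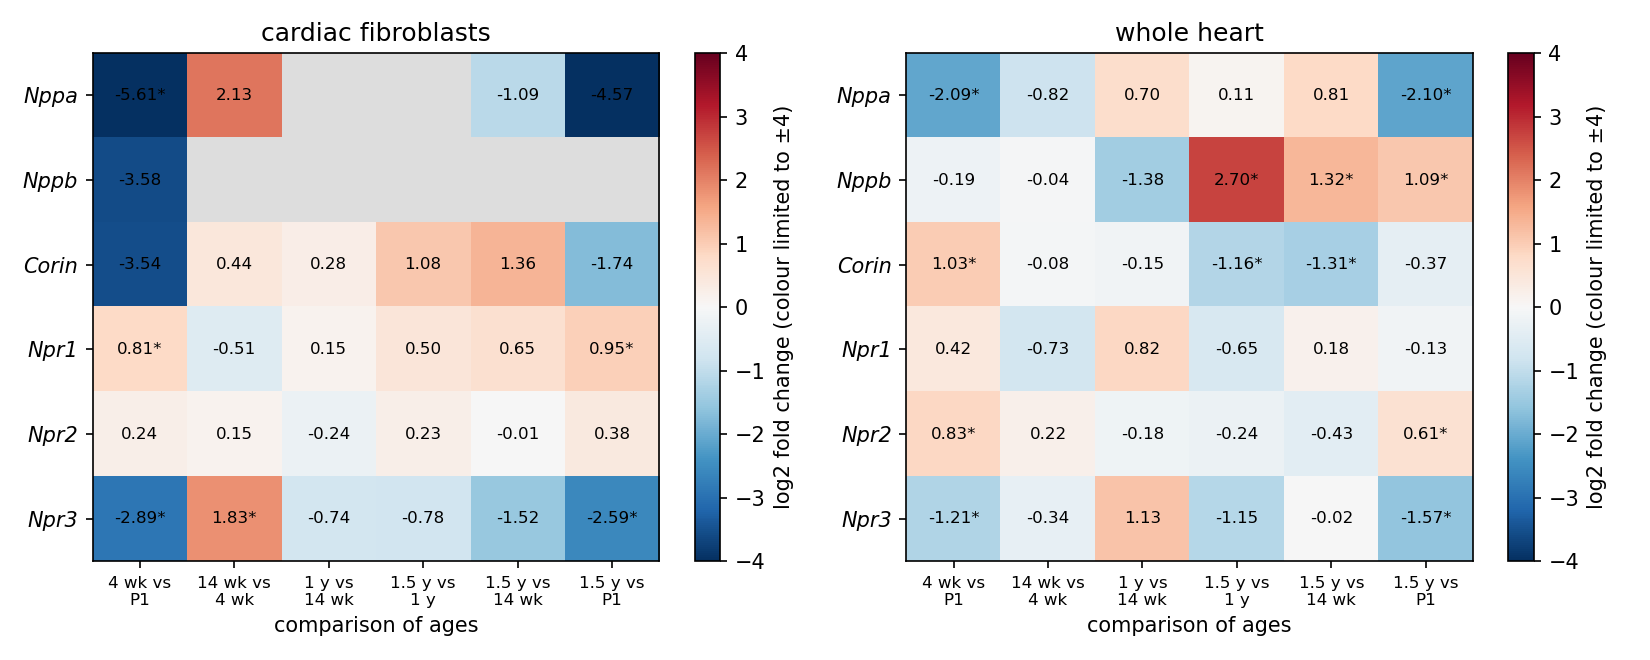
Fitted log2 fold changes of 6 members between ages (colour, limited to ±4, with the value printed) in cardiac fibroblasts and whole heart, where an asterisk marks an adjusted p under 0.05 and grey marks comparisons in which an age had at most 3 counts in every sample. Nppc is left out because of its low counts. Nppb in whole heart stands out at 1.5 years against 1 year (2.70), and Npr3 in cardiac fibroblasts at 4 weeks against postnatal day 1 (-2.89).

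Nppa encodes ANP, a gene of the fetal ventricle that becomes largely atrial after birth. In whole heart its level was 1264, 699 and 364 CPM in the 3 newborn hearts. Those of 4 weeks had 94.0, 330 and 123 CPM, and those of 14 weeks 105, 117 and 88.2 CPM. All 3 newborn hearts were above all later hearts, although the newborn replicate 3 and the 4-week replicate 2 were close. The mean was 776 ± 455 CPM at birth and 182 ± 129 CPM at 4 weeks (SD, n = 3 each). At 1 year the values were 202, 257 and 44.2 CPM, and at 1.5 years 132, 214 and 198 CPM. The later ages overlapped except 14 weeks and 1.5 years, which differed by 0.81 (SE 0.54) on the log2 scale with an adjusted p of 0.354 in edgeR. With only these ages in the fit this difference passed (log2 0.86, edgeR adjusted p = 0.0324). Nppa was 4.25-fold lower at 4 weeks than at postnatal day 1 (log2 fold change -2.09, SE 0.56, edgeR adjusted p = 0.0148). The difference between 1.5 years and birth was of the same size (log2 fold change -2.10, SE 0.56, edgeR adjusted p = 0.00892). The call for 4 weeks against postnatal day 1 was lost without newborn replicate 1 (adjusted p 0.0900), 4-week replicate 1 (0.0613) or 4-week replicate 3 (0.0690). That for 1.5 years against postnatal day 1 was lost without newborn replicate 1 (0.0654).

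Atrial markers varied between hearts of one age. Myl7, the atrial myosin light chain, was 28.0, 87.6 and 3.36 CPM in the 3 hearts of 4 weeks, 42.9, 70.4 and 9.62 CPM in those of 1 year and 3.07, 48.9 and 5.07 CPM in those of 1.5 years. Sarcolipin (Sln), another atrial gene, was 0.510, 9.05 and 0 CPM at 4 weeks, 13.5, 19.3 and 0.0201 CPM at 1 year and 0.754, 8.01 and 2.19 CPM at 1.5 years. The heart with the most Nppa was also the heart with the most Sln at 4 of 5 ages, Myl7 and Myl4 at 3, Bmp10 at 2 and Kcnj3 at 1, and the count was 4 for Nppb and 3 for Tnnt2, which are not atrial markers. The 1-year heart with 44.2 CPM of Nppa was the lowest of its age in both Myl7 and Sln. The summed level of all 5 atrial markers was 308 to 325 CPM at postnatal day 1 and 60.0 to 296 CPM at later ages, so the newborn hearts were also highest in these markers, and the part of this in the level of Nppa was not tested. In a bulk sample, fewer cells of a type and less RNA per cell cannot be told apart.

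Nppb encodes BNP, a standard marker of strain on the ventricle. In whole heart it was 431, 191 and 163 CPM at postnatal day 1, 128, 328 and 231 CPM at 4 weeks, and 209, 274 and 188 CPM at 14 weeks. These 3 ages overlapped. The values then lay at 64.3, 88.8 and 104 CPM at 1 year, below every heart of the other ages, and at 599, 633 and 440 CPM at 1.5 years, above every heart of the other ages. With total-count scaling newborn replicate 1 had 602 CPM, above 2 of the 3 hearts of 1.5 years (565 and 394 CPM). Their means after TMM were 85.6 ± 19.9 CPM and 557 ± 103 CPM (SD, n = 3 each). Nppb rose 6.51-fold from 1 year to 1.5 years (log2 fold change 2.70, SE 0.37, edgeR adjusted p = 0.00199). This call held in each of the 13 alternative fits, with log2 fold changes of 2.53 to 2.86 when samples were left out. The summed ventricular markers (Myl2 and Myl3) were also higher, at 24616 to 38480 CPM against 14921 to 21667 CPM at 1 year, and the atrial sum was 60.0 to 122 CPM against 120 to 296 CPM; the part of these in the rise was not tested. Against 14 weeks the level at 1.5 years was 2.49-fold higher (log2 1.32, SE 0.35, edgeR adjusted p = 0.0207), a call lost without 14-week replicate 1 or 3 or 1.5-year replicate 2 (adjusted p 0.0778, 0.0928 and 0.0611). Against postnatal day 1 it was higher by 1.09 on the log2 scale (SE 0.35, edgeR adjusted p = 0.0248), which was lost when libraries were scaled by total count alone (log2 0.51, adjusted p = 0.270), with only these ages in the fit (0.0508) and without either of newborn replicates 2 and 3 or of 1.5-year replicates 1 and 2 (0.0505 to 0.0902). The value at 1 year was lower than at 14 weeks by 1.38 on the log2 scale in edgeR, with an adjusted p of 0.0717. It passed under DESeq2 (0.0237), with at least 10 counts required in every sample (0.0352) and with only these ages in the fit (0.00365). As noted for sex, the 1.5-year hearts differ from those of 14 weeks and 1 year in Xist and Ddx3y too, and the part of this in the level of Nppb was not tested.

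Per exon length, Nppb RNA was less abundant than Nppa RNA at birth and more abundant in all later hearts except 2 of those of 1 year. The ratio of Nppb to Nppa was 0.377, 0.303 and 0.496 in the newborn hearts. It was 1.51, 1.10 and 2.09 at 4 weeks, 2.20, 2.59 and 2.36 at 14 weeks, and 5.03, 3.27 and 2.47 at 1.5 years. At 1 year it was 0.353 and 0.383 in replicates 1 and 2 and 2.59 in replicate 3, the heart low in Myl7 and Sln. A ratio within a sample does not depend on how libraries are scaled.

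**Figure D2:**
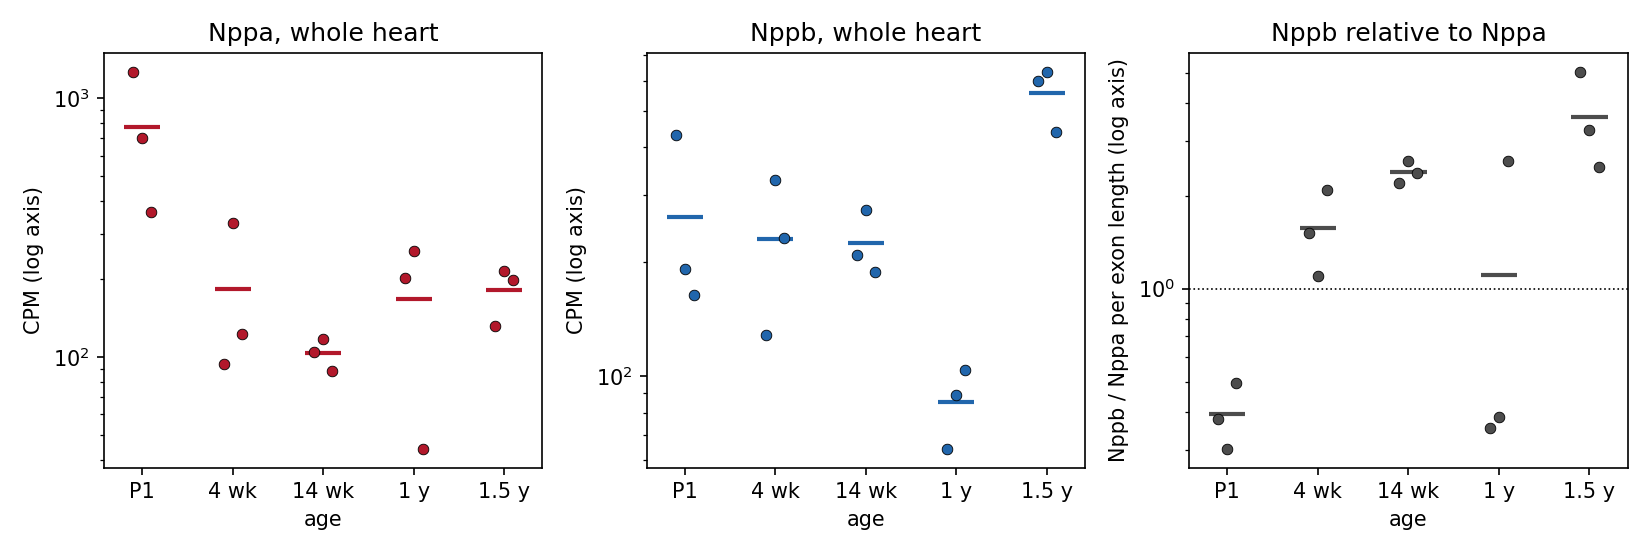
Level of Nppa and of Nppb in each whole heart in CPM, and the ratio of Nppb to Nppa per exon length, by age; each point is one sample, horizontal bars are means of 3 samples, and all 3 vertical axes are logarithmic. Nppa is highest at postnatal day 1 (364 to 1264 CPM), Nppb is lowest at 1 year (64.3 to 104 CPM) and highest at 1.5 years (440 to 633 CPM), and the dotted line marks a ratio of 1.

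Corin, the membrane protease of cardiomyocytes that cuts pro-ANP to ANP, went the other way from Nppa after birth. In whole heart it was 117, 83.2 and 64.9 CPM at postnatal day 1 and 238, 139 and 164 CPM at 4 weeks. After TMM the groups did not overlap, and the rise was 2.04-fold (log2 1.03, SE 0.26, edgeR adjusted p = 0.0114). This call was lost with scaling by total count (log2 0.51, adjusted p = 0.183), without 4-week replicate 1 (0.0632) and without newborn replicate 3 (0.0610). After TMM the summed cardiomyocyte markers were also higher, at 58455 to 69531 CPM against 32864 to 39250 CPM, and their part in the rise was not tested. Levels of 155, 151 and 205 CPM at 14 weeks and of 146, 113 and 199 CPM at 1 year overlapped those of 4 weeks. The 1-year heart with 113 CPM lay below newborn replicate 1, and neither age was tested against postnatal day 1. With total-count scaling newborn hearts held 164, 122 and 91.4 CPM. Those of 14 weeks then held 135, 119 and 179 CPM and those of 1 year 126, 96.7 and 188 CPM. At 1.5 years Corin after TMM was 86.5, 65.4 and 53.7 CPM, below every heart from 4 weeks to 1 year and overlapping the newborn hearts. Corin fell 2.48-fold from 14 weeks to 1.5 years (log2 -1.31, SE 0.27, edgeR adjusted p = 0.00468), a call that held in each of 13 alternative fits. From 1 year to 1.5 years it fell by 1.16 on the log2 scale (SE 0.27, edgeR adjusted p = 0.0342), which was lost with total-count scaling (adjusted p 0.0546), with only these 2 ages in the fit (0.108) and without 1-year replicate 1 or 3 or 1.5-year replicate 2 or 3 (0.0700 to 0.174). The 3 hearts of 1.5 years thus had, after TMM, the most Nppb of all hearts and, among those of 4 weeks and older, the least Corin.

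**Figure D3:**
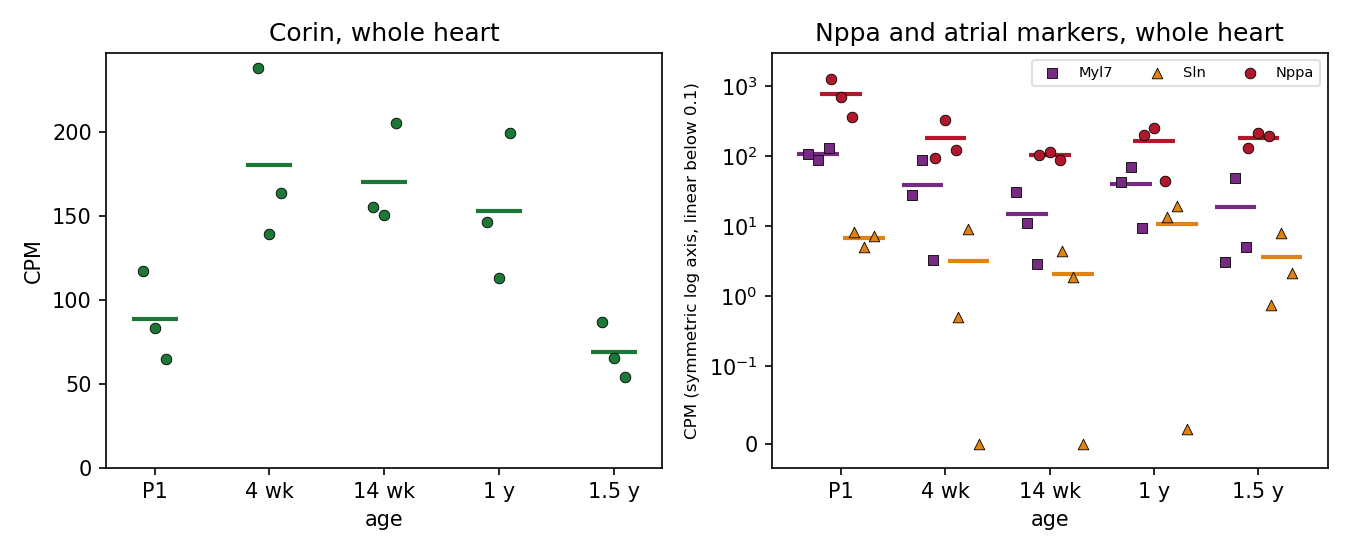
Left, Corin in each whole heart in CPM (linear axis from 0). Right, Nppa with the atrial markers Myl7 and Sln in the same hearts (symmetric log axis, linear below 0.1); points are samples in replicate order and bars are means of 3. Corin is 53.7 to 86.5 CPM at 1.5 years against 113 to 238 CPM from 4 weeks to 1 year, and Myl7 and Sln vary widely within each age after birth.

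Nppc was near the detection limit in whole heart. It had 0 counts in 8 of 15 hearts, including all 3 of 14 weeks. There the floor of 3 counts in a library averaged 0.0651 CPM (counting error only). The highest level of Nppc in whole heart was 1.22 CPM, in one newborn heart. In cardiac fibroblasts it was 1.45, 1.76 and 0 CPM at postnatal day 1 and 0.724, 4.74 and 8.20 CPM at 4 weeks. It was 0 and 1.05 CPM at 14 weeks, 1.90 and 0.710 CPM at 1 year and 4.66 and 2.70 CPM at 1.5 years. No comparison of ages passed in either tissue, and samples of one age differed several-fold. Pooled counts of cardiac fibroblasts against hearts, scaled by library, gave ratios of 1.47 at postnatal day 1 (exact binomial 95% interval 1.20 to 1.80), 14.1 at 4 weeks (10.7 to 19.1) and 4.42 at 1 year (3.09 to 6.49). At 14 weeks 75 counts stood against 0, and at 1.5 years 460 against 1, a ratio of 503 (89.8 to 19907). These intervals cover counting error only.

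Npr1, the receptor for ANP and BNP, rose in cardiac fibroblasts after birth. It was 62.7, 49.1 and 58.5 CPM at postnatal day 1 and 92.4, 78.6 and 127 CPM at 4 weeks, without overlap. The rise was 1.75-fold (log2 0.81, SE 0.18, edgeR adjusted p = 0.00767). Levels were 73.3 and 66.6 CPM at 14 weeks, 68.5 and 86.6 CPM at 1 year, and 109.2 and 109.6 CPM at 1.5 years. Against postnatal day 1 the level at 1.5 years was 1.93-fold higher (log2 0.95, SE 0.19, edgeR adjusted p = 0.00449), and both calls held in all alternative fits. Against 14 weeks it was higher by 0.65 on the log2 scale (SE 0.22), with an adjusted p of 0.169 in edgeR. That difference passed with only these ages in the fit (0.0445). In whole heart Npr1 was 23.4 to 31.4 CPM at postnatal day 1, 34.5 to 37.4 CPM at 4 weeks, 20.5 to 22.7 CPM at 14 weeks, 24.4 to 56.7 CPM at 1 year and 21.1 to 30.2 CPM at 1.5 years. No comparison of ages passed for Npr1 in whole heart in edgeR. The difference among the 5 ages had an adjusted p of 0.0516 and passed under DESeq2 (0.0234), with 10 counts in every sample (0.0277) and with total counts (0.0149), and 1 year against 14 weeks passed under DESeq2 (0.0308). The direction from postnatal day 1 to 4 weeks there depended on scaling, with a log2 difference of 0.42 after TMM and of -0.10 with total counts. Endothelial cells also express Npr1, and the summed endothelial markers in the cardiac fibroblast samples were 438 to 647 CPM at postnatal day 1, 607 to 2005 CPM at 4 weeks and 314 to 1325 CPM at 1.5 years. The 4-week sample with 127 CPM of Npr1 had the 2005 CPM, and the 2 samples of 1.5 years, with 109.2 and 109.6 CPM, had sums of 314 and 1325 CPM. The part of endothelial RNA in the rise was not tested.

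Npr2, the receptor for C-type natriuretic peptide, was the receptor with the most RNA per exon length in each cardiac fibroblast sample. No comparison of ages passed for it there in edgeR. It was 128, 140 and 138 CPM at postnatal day 1, 173, 141 and 166 CPM at 4 weeks, 175 and 179 CPM at 14 weeks, 155 and 144 CPM at 1 year, and 175.5 and 176.5 CPM at 1.5 years. The difference between postnatal day 1 and 1.5 years, 0.38 on the log2 scale (SE 0.13), had an adjusted p of 0.0563 in edgeR. It passed under DESeq2 (log2 0.36, adjusted p 0.0247), and the groups did not overlap. In whole heart it was 24.8, 36.9 and 21.2 CPM at postnatal day 1 and 54.8, 42.7 and 49.6 CPM at 4 weeks. The rise of 0.83 on the log2 scale (SE 0.22, edgeR adjusted p = 0.0148) was lost with total-count scaling (log2 0.30, adjusted p = 0.396) and without newborn replicate 1 or 3 or 4-week replicate 1 (0.0527 to 0.0736). Hearts of 14 weeks to 1.5 years lay between 34.8 and 65.4 CPM. Between postnatal day 1 and 1.5 years Npr2 rose by 0.61 (SE 0.22, edgeR adjusted p = 0.0439), with overlapping groups. This was lost with total-count scaling (log2 0.01, adjusted p = 0.976), with only these 2 ages in the fit (0.0993) and without newborn replicate 1 or 3 or 1.5-year replicate 1 or 2 (0.0806 to 0.149).

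Npr3, the clearance receptor, fell in both tissues after birth. In cardiac fibroblasts it was 28.3, 32.5 and 39.0 CPM at postnatal day 1 and 4.55, 3.34 and 5.55 CPM at 4 weeks. This 7.42-fold fall (log2 -2.89, SE 0.40, edgeR adjusted p = 0.000281) held in all alternative fits. Values of 20.7 and 11.1 CPM at 14 weeks lay between those ages, and the rise from 4 weeks (log2 1.83, SE 0.41, edgeR adjusted p = 0.0283) was lost with only these 2 ages in the fit (0.0636) and without 14-week replicate 4 (0.397), 14-week replicate 6 (0.0630), or 4-week replicate 1 (0.0833) or 2 (0.0914). Levels were 8.55 and 10.4 CPM at 1 year and 3.02 and 8.06 CPM at 1.5 years. At 1.5 years Npr3 was lower than at postnatal day 1 by 2.59 on the log2 scale (SE 0.46, edgeR adjusted p = 0.00173), which held in all alternative fits. Its difference at 1.5 years from 14 weeks (log2 -1.52, SE 0.47) had an adjusted p of 0.125 in edgeR and passed under DESeq2 (0.0418). Endocardial cells also express Npr3, and the summed endocardial markers were 95.04 to 180 CPM at postnatal day 1, 80.7 to 119 CPM at 4 weeks and 257 to 360 CPM at 1.5 years in these samples.

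In whole heart Npr3 was 93.8, 60.0 and 35.2 CPM at postnatal day 1 and 17.0, 17.0 and 47.9 CPM at 4 weeks. The groups overlapped, and the fall (log2 -1.21, SE 0.40, edgeR adjusted p = 0.0480) was lost with only these ages in the fit (0.107) and without newborn replicate 1 or 2 or 4-week replicate 1 or 2 (0.0924 to 0.241). At 14 weeks the levels were 20.9, 17.5 and 26.2 CPM, at 1 year 51.3, 49.8 and 40.2 CPM, and at 1.5 years 28.8, 12.8 and 22.2 CPM. The 1-year hearts thus lay above those of both neighbouring ages, with adjusted p-values of 0.208 against 14 weeks and 0.126 for 1.5 years against 1 year in edgeR. With only the 2 ages in the fit, the first of these passed (0.00483). From birth to 1.5 years Npr3 fell by 1.57 on the log2 scale (SE 0.41, edgeR adjusted p = 0.00769), a call lost without newborn replicate 1 (0.0643).

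When libraries of whole heart were scaled by total count, the median change over all genes, in log2, moved by -0.51 for 4 weeks against postnatal day 1 and by -0.60 for 1.5 years against postnatal day 1. No called member changed direction, but the calls did change. After TMM, 2 of the 4 members called at 4 weeks were higher than at birth, and with total counts both of the 2 called (Nppa and Npr3) were lower. At 1.5 years 2 of the 4 called after TMM were higher, and with total counts the 4 called (Nppa, Corin, Npr1 and Npr3) were all lower.

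Per exon length, Npr2 was 56.8% to 71.7% of the RNA of the 3 receptors in the cardiac fibroblast samples, Npr1 was 23.5% to 42.3% and Npr3 was 0.530% to 9.05%. The clearance receptor had its highest shares at postnatal day 1 (6.94%, 7.92% and 9.05%). In whole heart its share was 27.6% to 49.4% at postnatal day 1 and 8.44% to 27.4% at later ages, with 27.4%, 25.2% and 14.2% at 1 year. Npr2 was 26.4% to 37.9% of the receptor RNA in newborn hearts and 41.7% to 65.01% later.

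**Figure D4:**
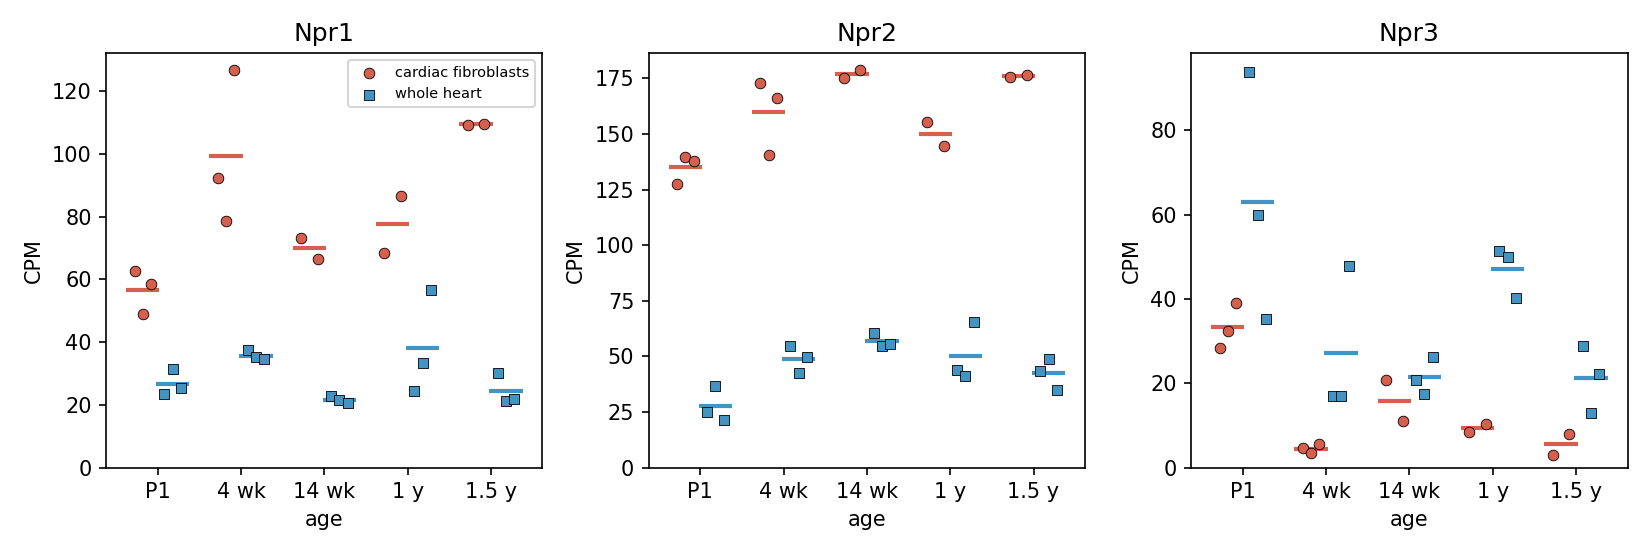
Level of Npr1, Npr2 and Npr3 in each sample in CPM (linear axes from 0), scaled within each tissue; circles are cardiac fibroblasts, squares are whole hearts, and bars are means of 2 or 3 samples. Npr1 and Npr2 lie higher in cardiac fibroblasts at every age, and Npr3 in cardiac fibroblasts is 28.3 to 39.0 CPM at postnatal day 1 and 3.02 to 20.7 CPM later.

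Nppa, Nppb and Corin were low in cardiac fibroblasts and highest at birth. Nppa was 13.0, 12.7 and 6.09 CPM at postnatal day 1 and 0.241, 0.161 and 0.244 CPM at 4 weeks (log2 -5.61, SE 1.45, edgeR adjusted p = 0.0212), a call lost without newborn replicate 1 or 2 or any one of the 4-week replicates (0.0539 to 0.0723). It was 1.40 and 0.491 CPM at 14 weeks, 0 in both samples of 1 year, and 0 and 0.888 CPM at 1.5 years. Nppa at 1.5 years differed from postnatal day 1 by -4.57 on the log2 scale (SE 1.64, edgeR adjusted p = 0.0857) and passed under DESeq2 (0.00167). Without replicate 5 of 1.5 years, which leaves the sample with 0 counts, the log2 difference was -12.5. Nppb was 0.417, 5.75 and 2.91 CPM at postnatal day 1, 0.134 to 0.402 CPM at 4 weeks, 3 counts in each sample of 14 weeks, and 0 in all 4 samples of 1 year and 1.5 years. Against 3 counts a library, the level at 1.5 years was at least 63.3-fold below the mean of postnatal day 1. This limit covers counting error only and not the spread of the newborn samples. The difference between these ages passed (edgeR adjusted p = 0.0242). That call was lost with only these 2 ages in the fit (0.0545) and without newborn replicate 2 (0.0702) or either sample of 1.5 years (0.124 and 0.141). Corin was 8.004, 5.15 and 4.43 CPM at postnatal day 1 and 0.375 to 0.609 CPM at 4 weeks, a log2 difference of -3.54 (SE 1.30) with an adjusted p of 0.0895 in edgeR, which passed under DESeq2 (0.00482) and with only these ages in the fit (0.0336). It was 0.710 and 0.659 CPM at 14 weeks and 1.03 and 0.629 CPM at 1 year.

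In the cardiac fibroblast samples, heart muscle RNA was highest at birth too. How closely it followed these 3 genes after birth was not tested. The summed level of 8 cardiomyocyte markers, all 8 of them detected at postnatal day 1, was 667, 663 and 725 CPM there, 62.7, 52.0 and 149 CPM at 4 weeks, 105 and 76.2 CPM at 14 weeks, and 11.96 and 30.9 CPM at 1 year. At 1.5 years it was 19.2 CPM in replicate 4, with 3 of the 8 at 0, and 103 CPM in replicate 5. Replicate 4 had 0.0325 CPM of Corin and no Nppa, and replicate 5 had 3.48 CPM of Corin and 0.888 CPM of Nppa. Without replicate 5, the fall of Corin from birth to 1.5 years passed in edgeR (adjusted p 0.0424, against 0.452 with it), and its log2 difference from 14 weeks turned from 1.36 to -4.33. On one scale for both tissues, newborn cardiac fibroblasts held 1.07% of the Nppa level of newborn heart, 0.908% of the Nppb level and 5.21% of the Corin level, beside 0.964% to 1.90% for the 8 cardiomyocyte markers (median 1.44%). At 4 weeks the values were 0.0925%, 0.0863% and 0.219%, beside 0.0371% to 0.165% for the markers. At 14 weeks they were 0.712%, 0.0164% and 0.314%, beside 0.0703% to 0.186%. Those of 1 year were 0, 0 and 0.442%, beside 0.0165% to 0.0534%, and those of 1.5 years 0.187%, 0 and 1.96%, beside 0.0418% to 0.284%. The shares of Nppa and Nppb thus lay in or near the range of the markers at the 2 youngest ages. At 14 weeks Nppa lay above the range and Nppb below it. Both lay below it, at 0, at 1 year, and at 1.5 years Nppa lay in it and Nppb below it. The share of Corin lay above the range at all 5 ages. The part of cardiomyocyte RNA in these counts was not tested.

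**Figure D5:**
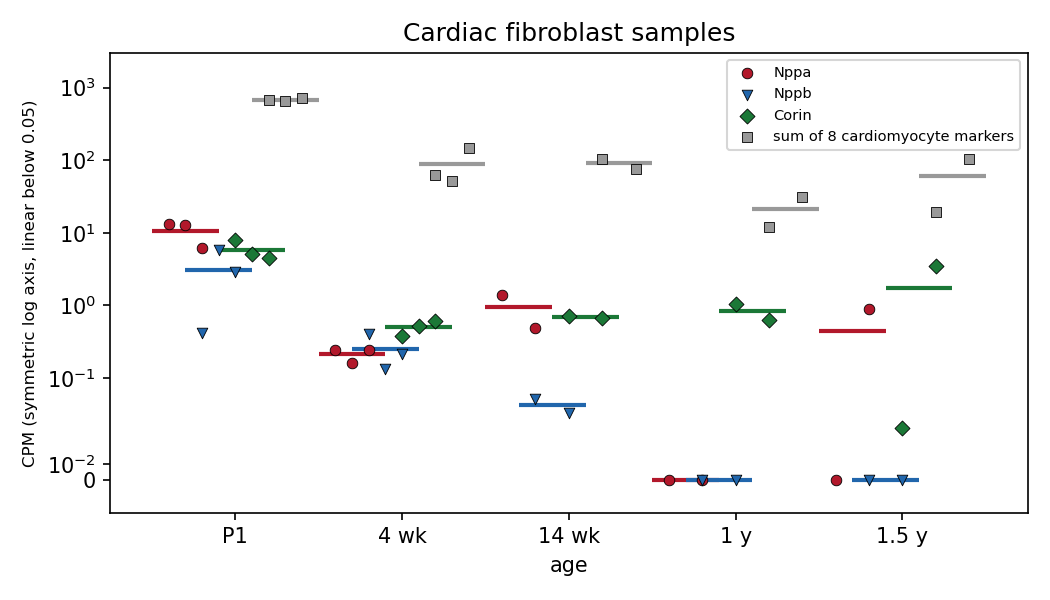
Nppa, Nppb, Corin and the summed level of 8 cardiomyocyte markers in each cardiac fibroblast sample, in CPM on a symmetric log axis that is linear below 0.05; bars are means of 2 or 3 samples. All 4 series are highest at postnatal day 1, where the marker sum is 663 to 725 CPM, and Nppa and Nppb are at 0 in both samples of 1 year.

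Set directly against each other in one fit over all 27 samples, the tissues differed in most members at every age. Among newborns 6 of the 7 passed (32.3% of 20650 genes), in the 4-week groups 6 (36.1%), in the 14-week groups 5 (34.8%), in the 1-year groups 6 (32.4%) and in the oldest groups 7 (38.9%). Nppa, Nppb and Corin were lower in cardiac fibroblasts at each age. At 4 weeks, for example, Nppa was lower by 10.06 on the log2 scale (SE 0.97, edgeR adjusted p = 1.52e-08). At 1.5 years Nppb was at least 15109-fold below the mean of the hearts against 3 counts a library (counting error only). Npr2 was higher in cardiac fibroblasts at all 5 ages, by 1.94 (SE 0.19) at birth and by 1.28 to 1.68 afterwards on the log2 scale. Npr1 was higher by 0.74 (SE 0.23) at birth and by 0.72 to 1.79 afterwards, least at 1 year and most at 1.5 years. The difference at postnatal day 1 was lost without newborn heart replicate 1 (adjusted p 0.0621), and that at 1 year with only this age in the fit (0.0821) and without heart replicate 1 or 2 or fibroblast replicate 5 (0.0622 to 0.232). Npr3 was lower in cardiac fibroblasts, with log2 differences of -1.27 (SE 0.42) at birth, -2.96 for 4 weeks, -2.62 for 1 year and -2.32 for 1.5 years, and of -0.80 for 14 weeks, where it did not pass (edgeR adjusted p = 0.206). The newborn difference in Npr3 was lost without a filter on low counts (0.0506), without newborn heart replicate 1 (0.155) and without fibroblast replicate 1 or 2 (0.0754 and 0.0588). Nppc passed at 1.5 years (edgeR adjusted p = 0.0314), a call lost without fibroblast replicate 4 or any one heart (0.0577 to 0.0910).

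In the same fit, an interaction term tested whether a member changed more with age in one tissue than in the other. For 4 weeks against postnatal day 1 it passed for 3 members (7.14% of all genes). Corin rose in whole heart and was lower, without passing, in cardiac fibroblasts (difference in log2 change -4.57, SE 0.84, edgeR adjusted p = 0.00105), and the changes of Nppa and Nppb were more negative in cardiac fibroblasts (-3.52 and -3.38, adjusted p 0.0387 and 0.0155). These calls were lost in 9 of 18 alternative fits for Nppa and 2 of 18 for Nppb. For 1.5 years against postnatal day 1 it passed for 2 (13.6%), Nppb and Npr1. The change of Npr1 was larger in cardiac fibroblasts by 1.05 (SE 0.34, edgeR adjusted p = 0.0389), a call lost in 12 of 17 alternative fits. For Npr3 the difference at 4 weeks was -1.69 (SE 0.59) with an edgeR adjusted p of 0.0864, so the falls in the tissues were not shown to differ; DESeq2 gave 0.0212.

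Downstream and around the members, 28 of 30 listed genes of peptide processing and cyclic GMP handling could be tested. From postnatal day 1 to 4 weeks, 12 of the 28 passed in cardiac fibroblasts (42.9%, beside 15.5% of all genes), 9 higher and 3 lower, with a median log2 change over the list of -0.07 beside 0.00 over all genes. The largest rises were in Pcsk6 (2.38), the convertase that activates corin, in Gucy1a2 (2.14), a subunit of the nitric oxide-sensitive guanylyl cyclase, and in Abcc4 (1.33), which exports cyclic nucleotides. The largest falls were in Mrvi1 (-1.92), a substrate of cyclic GMP kinase I, in the phosphodiesterase Pde3a (-0.87) and in Gucy1b3 (-0.55), the beta subunit of that cyclase. In whole heart 7 passed (25.0%, beside 18.2% of all genes), 5 higher and 2 lower, with a list median of 0.01 beside -0.09. There Pcsk6 (3.02), Mme (1.94), which encodes neprilysin, and Abcc4 (1.61) rose most, and the peptidases Dpp4 (-1.52) and Ide (-0.66) fell.

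Between later ages fewer of the listed genes passed, as over all genes. Between 4 and 14 weeks 3 passed in cardiac fibroblasts (10.7%, beside 3.87% of all genes) and 0 in whole heart (beside 1.61%), and between 14 weeks and 1 year 1 (3.57%, beside 1.78%) and 0 (beside 0.972%). From 1 year to 1.5 years 0 (beside 0.240%) and 2 (7.14%, beside 2.66%) passed, and from 14 weeks to 1.5 years 1 (3.57%, beside 2.72%) and 4 (14.3%, beside 12.8%), the whole heart genes all lower at 1.5 years. In the 3 comparisons with 0 calls, DESeq2 called 2 (whole heart, 14 against 4 weeks), 2 (whole heart, 1 year against 14 weeks) and 0 (cardiac fibroblasts, 1.5 years against 1 year), and 4, 6 and 3 genes had an unadjusted p under 0.05 in edgeR. Between postnatal day 1 and 1.5 years 8 passed in cardiac fibroblasts (28.6%, beside 16.3% of all genes; 5 higher and 3 lower, list median 0.26 beside 0.00), led by Gucy1a2 (2.99), Pcsk6 (2.30) and the phosphodiesterase Pde3b (1.82), and by falls in the cyclic GMP phosphodiesterase Pde5a (-2.21), Pde3a (-0.80) and the convertase Furin (-0.46). In whole heart 12 passed (42.9%, beside 31.8% of all genes; 5 higher and 7 lower, list median -0.74 beside -0.15), with rises in Pcsk6 (2.52), Mme (2.06) and Abcc4 (1.12) and falls in Pcsk5 (-2.66), a further convertase, the phosphodiesterase Pde1c (-1.77) and Ppp1r12a (-1.73), a subunit of myosin phosphatase. Pcsk6 was among the largest rises in both tissues and both comparisons.

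The genes most like each member in their course were found by Pearson's r of log2 CPM over samples of all ages, among 10297 to 10503 genes with a mean of at least 5 CPM, and are a description. Over 15 whole hearts, the closest to Nppa were Fzd2 (0.92), Prmt1 (0.91) and Cdkn1c (0.90), to Nppb Tnfrsf12a (0.89), Pygo2 (0.82) and Hspb1 (0.81), and to Corin Adgrf5 (0.95), Tns1 (0.94) and Chrm2 (0.94). Those closest to Npr1 were Adar (0.81), Tyk2 (0.81) and Pear1 (0.80), to Npr2 P4ha2 (0.91), Plbd2 (0.90) and Tacc2 (0.90), and to Npr3 Pitpnb (0.89), Dpp4 (0.86) and 2410006H16Rik (0.85). Over 12 cardiac fibroblast samples, Slfn5 (0.96), Ifrd1 (0.93) and Bmp2 (0.93) were closest to Npr1, Synj1 (0.93), Mdn1 (0.92) and Ptp4a1 (0.92) to Npr2, and Bzw2 (0.92), Ccdc3 (0.92) and Cnot1 (0.92) to Npr3. There the genes closest to Corin were Actn2 (0.89), Acadl (0.89) and Myh7 (0.89), of which Actn2 and Myh7 are genes of the cardiomyocyte sarcomere. For Nppa they were Hspb7 (0.97), a small heat shock protein of heart muscle, Prag1 (0.97) and Sipa1l1 (0.96), and for Nppb they were Armcx4 (0.97), Msi2 (0.97) and Hnrnpd (0.97). For Nppc the closest were Sulf1 (0.85), Aldh1a2 (0.80) and Brip1os (0.77) in whole heart, at counts near the floor. In cardiac fibroblasts, where Nppc had 0 counts in 2 of 12 samples, they were Hdac8 (0.89), Tbc1d8 (0.84) and Ankrd10 (0.83). Nppb had 0 counts there in each sample of 1 year and 1.5 years, and Nppa in each sample of 1 year. The samples share age, depth and tissue composition.

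Antisense genes overlap some members in exons, and the strand setting used for counting is not given in the sources used here, so reads of the partners may not be separable. Gm13054 shares 532 exon bases with Nppa and was 5.24 to 22.3 CPM in newborn hearts and 0.381 to 8.53 CPM later. Gm16048 shares 559 with Npr1 and Gm12473 shares 266 with Npr2, and neither exceeded 3.68 CPM in any sample.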

How the data were processed

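Whole-heart and sorted cardiac fibroblast RNA (polyA) was sequenced as single 65-base reads. The authors aligned reads to mm10 with STAR 2.5.3a and deposited raw counts per gene for each tissue; the annotation and strand setting are not given in the sources used here. All 27 samples were used, in groups of one tissue and one age taken from the labels.

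Counts were analysed with edgeR 4.0.16 in R 4.3.3: filterByExpr, TMM scaling, and quasi-likelihood F tests with age as the only factor and all samples of a tissue in one fit. Tissues were compared, and interactions tested, in one fit over all samples. P-values were adjusted by Benjamini-Hochberg over all genes tested, with a threshold of 0.05. Levels are counts scaled to 1000000 by TMM-adjusted library size (CPM). Standard errors (SE) of log2 fold changes were derived from the F statistic. A count of 3 per library served as the floor where a group had no counts. edgeR's common dispersion gave a coefficient of variation between samples of 87.9% (fibroblasts) and 71.8% (hearts). Mitochondrial genes took 1.74% to 9.18% of counts in fibroblasts and 10.8% to 34.5% in hearts. No pair of samples of one group held identical counts.

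The members and gene lists were chosen with earlier results of these data known. Genes named were the 7 members, the 3 highest and 3 lowest pathway genes called for 4 weeks and for 1.5 years against postnatal day 1, the 3 genes of highest r per member, genes overlapping a member, and 1 or 2 markers per cell type. Xist and Ddx3y were added after the data were seen. Alternatives were DESeq2 1.42.0, median-of-ratios or total-count scaling, dropping the low-count filter or requiring 10 counts in each sample, fitting only the ages compared, a replicate block, and leaving out each sample in turn. The scripts were tested on simulated data. Loci and exon lengths came from GENCODE M21 and start-site windows from RefSeq (7 of 7 members matched). Tables and plots used python 3.11.15, pandas 2.3.3 and matplotlib 3.10.9.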

Additional observations from a re-analysis of the deposited data

Results flagged for a closer look

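In 5 cases the change of a member with age differed between cardiac fibroblasts and whole heart by the interaction test in edgeR. From postnatal day 1 to 4 weeks these were Nppa (adjusted p 0.0387), Nppb (0.0155) and Corin (0.00105). Between birth and 1.5 years they were Nppb (0.000131) and Npr1 (0.0389). In the cardiac fibroblast samples of these comparisons Nppa, Nppb and Corin were at 0 to 13.0 CPM, and the summed cardiomyocyte markers were 663 to 725 CPM at birth and 19.2 to 149 CPM at 4 weeks and 1.5 years. The part of that in the differences was not tested.

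The Corin difference at 4 weeks held in all 18 alternative fits and the Nppb difference at 1.5 years in all 16. The Nppb difference at 4 weeks was lost in 2 of 18, without newborn fibroblast replicate 2 (0.0615) and with only these ages in the fit (0.0778). The Nppa difference was lost in 9 of 18: with total-count scaling (0.0538), without fibroblast replicate 1 or 2 of postnatal day 1, without any one 4-week fibroblast sample, and without newborn heart replicate 2 or 3 or 4-week heart replicate 2 (0.0654 to 0.114). The Npr1 difference was lost in 12 of 17, under DESeq2 (0.0789), median-of-ratios scaling (0.106), no filter (0.0759), only these ages (0.0800) and without 8 of the 11 samples left out in turn (0.0527 to 0.140). Without fibroblast replicate 5 of 1.5 years, the Corin difference at that age passed (-7.05 on the log2 scale, adjusted p 1.03e-05, against -1.41 and 0.300 with it).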

How the results depend on the processing

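Of 63 results called for a single member, 40 kept their call under every alternative run, and no alternative turned the direction of a called result. Over single members and settings, 1706 values kept their direction and side of the threshold, 38 newly passed, 94 no longer passed and 41 changed sign, all 41 in results that were not called. Where no value below shows otherwise, the cause of a change was not tested.

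Members called under DESeq2 numbered 5 in place of 3 for cardiac fibroblasts both at 4 weeks and at 1.5 years against postnatal day 1, 1 in place of 0 in each of the 3 later fibroblast comparisons without a call, 2 in place of 0 for whole heart at 1 year against 14 weeks, and 5 in place of 3 for the tissue difference at 4 weeks. Requiring 10 counts in every sample removes members at low counts from the test. It left 2 of 4 called among the fibroblast ages and 3, 3, 2, 3 and 3 in place of 6, 6, 5, 6 and 7 between tissues from youngest to oldest, and it gave 1 in place of 0 for whole heart at 1 year against 14 weeks and 1 in place of 3 for the tissue difference at 4 weeks. With total-count scaling 2 in place of 4 were called for whole heart at 4 weeks against postnatal day 1 and 1 in place of 2 at 1.5 years against 1 year. With only the ages compared in the fit, fewer samples informed the spread. The counts were then 0 in place of 1 for fibroblasts at 14 against 4 weeks, 1 in place of 0 at 1.5 years against 14 weeks, and for whole heart 2 in place of 0 at 1 year against 14 weeks, 1 in place of 2 at 1.5 years against 1 year and 2 in place of 4 at 1.5 years against postnatal day 1. The tissue difference at 1.5 years was called for 1 member in place of 2 under DESeq2, median-of-ratios scaling, no filter, 10 counts and only these ages.

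Leaving out 1 sample gave 3 to 5 members among the fibroblast ages, 2 to 3 at 4 weeks and 2 to 4 at 1.5 years against postnatal day 1, and 0 to 1 at 14 against 4 weeks, where any of 14-week replicates 4 and 6 and 4-week replicates 1 and 2 gave 0. It gave 0 to 1 at 1.5 years against 1 year, with 1 (Nppa) without replicate 4 of 1.5 years. In whole heart the range was 3 to 6 among ages (3 without newborn replicate 1), 0 to 3 at 4 weeks against postnatal day 1 (0 without 4-week replicate 1), 1 to 2 at 1.5 years against 1 year and against 14 weeks, and 1 to 4 at 1.5 years against postnatal day 1 (1 without newborn replicate 1). For the tissue differences it was 1 to 4 at 4 weeks (1 without newborn fibroblast replicate 2) and 1 to 3 at 1.5 years, and between tissues 4 to 6 at birth and 5 to 7 at 1 and 1.5 years.

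Of the 28 pathway genes, DESeq2 called 17 in place of 11 among the fibroblast ages, 2 in place of 1 at 1 year and 3 in place of 1 at 1.5 years against 14 weeks in fibroblasts, and in whole heart 2 in place of 0 at 14 weeks against 4 weeks, 2 in place of 0 at 1 year against 14 weeks and 4 in place of 2 at 1.5 years against 1 year. A minimum of 10 counts gave 17 among the fibroblast ages and 2 at 1.5 years against 14 weeks. Only the ages compared gave 7 in place of 12 for fibroblasts at 4 weeks against postnatal day 1, 2 in place of 1 at 1 year against 14 weeks, and for whole heart 3 in place of 0 at 1 year against 14 weeks and 1 in place of 2 at 1.5 years against 1 year. Total-count scaling gave 11 in place of 7 for whole heart at 4 weeks against postnatal day 1, 1 in place of 0 at 14 against 4 weeks and 1 in place of 2 at 1.5 years against 1 year, where median-of-ratios scaling also gave 1. Leaving out 1 sample gave 1 to 3 for fibroblasts at 14 against 4 weeks (1 without 14-week replicate 6), 0 to 1 at 1 year against 14 weeks (0 without 14-week replicate 4 or 6 or 1-year replicate 4) and 0 at 1.5 years against 14 weeks whichever sample was left out. For whole heart it gave 1 to 4 at 1.5 years against 1 year (4 without 1.5-year replicate 1, 1 without 1.5-year replicate 3 or 1-year replicate 1 or 3) and 3 to 7 at 1.5 years against 14 weeks (7 without 1.5-year replicate 1).

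Changes of sign were all in small or poorly measured differences. In fibroblasts Corin moved from 0.28 to -0.35 at 1 year against 14 weeks, from 1.08 to -1.01 at 1.5 years against 1 year and from 1.36 to -1.37 at 1.5 years against 14 weeks with the replicate block, and ranged from -0.12 to 0.59, from -4.60 to 2.06 and from -4.33 to 2.34 with 1 sample left out; the negative values of the last 2 came without replicate 5 of 1.5 years. Npr1 at 1 year against 14 weeks moved from 0.15 to -0.030 with total-count scaling and -0.012 with the block, and ranged from -0.032 to 0.31. Npr2 at 1.5 years against 14 weeks moved from -0.0075 to 0.0010 under DESeq2 and median-of-ratios scaling and 0.031 with the block, and ranged from -0.023 to 0.0030. In whole heart total-count scaling moved Npr1 at 4 weeks against postnatal day 1 from 0.42 to -0.10 and Npr2 at 14 against 4 weeks from 0.22 to -0.026. Npr3 at 1.5 years against 14 weeks moved from -0.017 to 0.055 under DESeq2, 0.054 with median-of-ratios scaling, 0.12 with total counts, 0.031 with no filter, 0.091 with 10 counts and 0.028 with only these ages, and ranged from -0.30 to 0.24 with 1 sample left out. The other ranges in whole heart were -0.54 to 0.37 (Nppb, 4 weeks against postnatal day 1), -0.32 to 0.31 (Nppb), -0.24 to 0.17 (Corin) and -0.59 to 0.34 (Npr3) at 14 against 4 weeks, -0.39 to 0.022 (Corin, 1 year against 14 weeks), -0.34 to 0.56 (Nppa) and -7.00 to 1.93 (Nppc) at 1.5 years against 1 year, -0.0047 to 0.27 (Npr1, 1.5 years against 14 weeks) and -0.31 to 0.051 (Npr1, 1.5 years against postnatal day 1). Nppc between tissues at birth ranged from -0.022 to 1.74. The tissue difference of Npr2 at 1.5 years moved from -0.26 to 0.16 with total counts.

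Same-numbered samples did not deviate together (r of -0.032 to 0.036 over 7 pairs in fibroblasts and -0.062 to 0.10 over 30 pairs in whole heart), so the numbers were not taken as pairs. With the replicate block the pathway counts were 0 in place of 1 for fibroblasts at both 1 year and 1.5 years against 14 weeks and 1 in place of 2 for whole heart at 1.5 years against 1 year, and Npr2 in whole heart at 1.5 years against postnatal day 1 was no longer called (adjusted p 0.0625); no other call of a member changed. The block could not be fitted between the 2 younger and 3 older fibroblast ages, nor between tissues where they share no number. Total-count scaling moved the median of all genes by up to 0.66 between tissues by -0.60 to 0.12 between ages in whole heart and by -0.18 to 0.04 between ages in fibroblasts. Spearman's rho shared 16 of the 42 genes listed as most like a member. By total counts, without TMM, floors of 3 counts lay at 0.0391 to 0.0651 CPM. This limits statements on Nppa, Nppb and Nppc in fibroblasts and on Nppc in whole heart.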
